A study of Mus musculus with 53 samples.

Results

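Cdh15 encodes M-cadherin, a calcium-dependent adhesion protein first known from skeletal muscle, and 1 gene is described here across every RNA library of a mouse cerebellum study. It was found by its symbol, as 1 of 55573 genes in both bulk tables (ENSMUSG00000031962.6) and as 1 of 57010 genes in the single-cell matrices. The bulk RNA-seq libraries come from whole cerebella of individual pups at postnatal day 2 (P2). They comprise 4 Insm1 controls (Insm1fl/fl), 4 Insm1 mutants (Atoh1Cre with Insm1fl/fl), 3 Tead1/2 controls (Tead1fl/fl with Tead2fl/fl) and 4 Tead1/2 mutants (Atoh1Cre with both floxed Tead genes). The single-cell RNA-seq data, from postnatal day 7 (P7), hold 10 libraries of 1 cerebellum each, with 2 controls and 3 mutants of each allele. In each allele control 1 and mutant 1 kept all lobules, while control 2 and mutants 2 and 3 lacked lobules IX and X. The 2 dissections were therefore not in the same proportion in controls and mutants. Every control carries the homozygous floxed alleles of its line and no Cre, so that Cre itself was present in the mutants alone. Atoh1Cre recombines in the granule cell lineage and other descendants of the rhombic lip, and the remaining cells of the cerebellum keep the floxed genes. The bulk libraries of the 2 lines were labelled as different batches (2 for Insm1, 3 for Tead1/2), so line and batch cannot be told apart where the controls are compared at P2.

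Classical cadherins join neighbouring cells by binding the same cadherin on the opposite membrane, and their cytoplasmic tails bind beta-catenin and, through alpha-catenin, the actin cytoskeleton. M-cadherin is known from satellite cells and myoblasts, where it sits at contacts between cells that align and fuse, and also from the cerebellum, where granule cells carry it. Granule cells arise from Atoh1-expressing progenitors that divide in the external granule layer before they leave the cell cycle and migrate inwards. The gene was chosen with its values in these libraries already known, so its levels and differences are given as descriptions, with no test.

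Before the values, 1 library has to be singled out. In the library labelled Tead1/2 mutant 4, Cdh15 lay at the control level, and Myog, which encodes the muscle factor myogenin, stood at 0.415 CPM (counts-per-million, scaled by TMM at P2) against 29.0 to 36.8 CPM in the other mutants of that allele. Tead2 stood at 25.9 CPM in that library, against 17.4 to 19.5 CPM in Tead1/2 mutants 1 to 3 and 22.3 to 25.7 CPM in the controls of that line. The Insm1 controls, of the other line and batch, had 79.3 to 90.0 CPM of Tead2 (edgeR log2 difference -1.86, Tead1/2 minus Insm1, FDR 2.13e-08), so the control level of Tead2 itself differed between the lines, whose batches also differ. The P2 changes of Cdh15 and the counts of called genes are therefore given with and without it. Insm1 fell in Insm1 mutants (edgeR log2 change -1.91, FDR 0.0194), with levels of 30.8 to 72.0 CPM in Insm1 controls and 8.45 to 16.1 CPM in mutants. Tead2 passed in Tead1/2 mutants at P2 only without the library labelled mutant 4 (edgeR log2 change -0.35, FDR 0.0417). With it none of 20247 genes passed. Its Tead2 level was among the reasons to single it out, so the test of Tead2 without it is not independent of that choice. In all P7 cells Tead2 fell (-1.89, FDR 1.88e-07), while Tead1 did not pass at P2 (-0.09, SE 0.14) and rose in all P7 cells (1.02, FDR 2.47e-06). A read outside the deleted part of a gene does not check the deletion.

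The gene lies on chromosome 8 of mouse build GRCm38.p6, from 122848374 to 122867397 on the plus strand. The 250 bases before its RefSeq start (chr8:122848124-122848373, plus strand, upstream of the first exon) are shown because factors of the myogenic bHLH family and Atoh1 bind E-boxes, with the core CANNTG, and TEAD factors bind the M-CAT core GGAATG. Capitals mark the E-boxes.

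Cdh15 promoter: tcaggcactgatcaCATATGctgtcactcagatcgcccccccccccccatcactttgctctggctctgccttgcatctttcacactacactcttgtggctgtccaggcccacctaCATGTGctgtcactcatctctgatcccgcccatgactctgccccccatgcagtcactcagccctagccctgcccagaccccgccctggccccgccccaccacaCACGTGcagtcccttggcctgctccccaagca

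The window holds 3 E-boxes. The first base of CATATG lies 236 bases before the start, that of the middle E-box 135 bases before it and that of the last, CACGTG, 32 bases before it. E-boxes are common: 66.2% of 32851 RefSeq promoter windows of this length hold at least 1 on either strand, and 12.2% hold at least 3. The M-CAT core GGAATG was in this window on neither strand, and 12.6% of all windows hold it. The E-box pattern reads the same on both strands, and the patterns searched do not overlap one another here. These matches describe letters and were not set against binding data.

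At P2, Cdh15 was low in every control and several times higher in 7 of the 8 mutant cerebella. In the Insm1 controls it stood at 1.69, 1.42, 0.902 and 1.02 CPM (70, 53, 30 and 34 expected counts). In the Insm1 mutants it stood at 6.97, 5.70, 6.09 and 8.67 CPM (286, 195, 183 and 273 expected counts). The lowest mutant lay above the highest control, and the groups did not overlap. The group means were 1.26 ± 0.364 CPM (SD, n = 4) and 6.86 ± 1.32 CPM (SD, n = 4), a log2 change of 2.43 (SE 0.21), or 5.40-fold with 4.66- to 6.26-fold at 1 SE to either side. Over all 19582 genes tested in these 8 libraries, 3.08% were higher in every mutant than in every control, and 0.689% passed an edgeR false discovery rate (FDR) of 0.05. The rule that chose Cdh15 used this contrast, so nothing is read from its place in that share.

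In the Tead1/2 controls Cdh15 stood at 0.870, 1.07 and 0.853 CPM (35, 45 and 24 expected counts). Tead1/2 mutants 1 to 3 stood at 9.03, 8.61 and 11.04 CPM (398, 544 and 398 expected counts), and the library labelled Tead1/2 mutant 4 at 0.957 CPM (30 expected counts). Mutants 1 to 3 lay above all controls of both alleles and, with 1 exception, above every Insm1 mutant: Insm1 mutant 4, at 8.67 CPM, exceeded Tead1/2 mutant 2. The library labelled mutant 4 fell inside the control range. With all 4 mutants the mean was 7.41 ± 4.43 CPM (SD, n = 4) against 0.930 ± 0.120 CPM (SD, n = 3) in controls, and the log2 change was 2.99 (SE 0.64). Without the library labelled mutant 4 the mutant mean was 9.56 ± 1.298 CPM (SD, n = 3) and the log2 change 3.34 (SE 0.16), or 10.1-fold. In that comparison 14.4% of 20234 genes were higher in every mutant than in every control, and 9.96% of 20247 were with all 4 mutants. Whole-cerebellum RNA cannot tell apart more cells that carry a transcript from more transcript per cell.

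**Figure D1:**
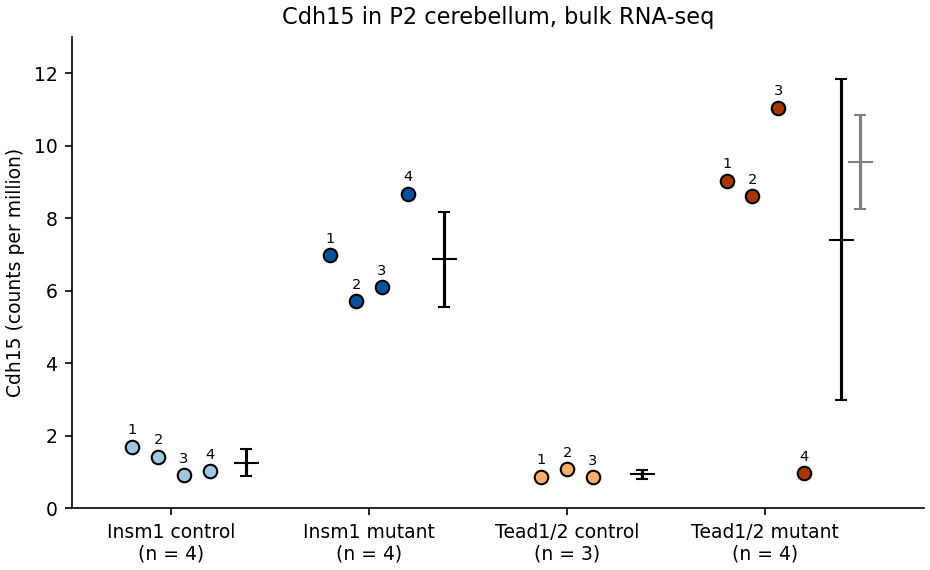
Cdh15 in CPM (vertical axis) in each of 15 P2 bulk libraries, grouped by genotype (horizontal axis), with library numbers above the points. Black bars give the group mean and SD, and the grey bar gives the Tead1/2 mutants without the library labelled mutant 4, which sits at 0.957 CPM among the controls while the other mutants sit at 5.70 CPM or more.

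Muscle markers moved with Cdh15 at P2. The summed level of 14 skeletal muscle markers ran from 20.5 to 45.6 CPM in Insm1 controls and from 164 to 274 CPM in Insm1 mutants. Of the 14, Insm1 control 3 had 2 at 0, and 1 was at 0 in Insm1 control 4, in Tead1/2 control 3 and in the library with the number 4 among the Tead1/2 mutants. The sum ran from 25.3 to 26.8 CPM in Tead1/2 controls, and from 169 to 226 CPM in mutants 1 to 3 of that allele, and the library labelled mutant 4 stood at 21.5 CPM. In the Insm1 comparison 13 of the 14 markers passed the edgeR test in the upward direction (median log2 change 3.49, against 0.01 over all genes tested, of which 0.48% passed upwards). Without the library labelled mutant 4, 12 of 14 did in the Tead1/2 comparison (median 3.59, against -0.01 over all genes, of which 1.98% passed upwards and 3.19% in either direction). With it, none of the 14 passed (median 3.24), as 0% of all genes did, so that count says nothing about the markers. The part of muscle cells in the P2 rise of Cdh15 was not tested in the bulk data, since these cells cannot be separated there.

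The genes whose log2 CPM followed Cdh15 most closely over the 15 P2 libraries included several genes of muscle. Klhl41, a sarcomere-associated kelch protein, came first of 16371 genes by Pearson correlation (r 0.98, Spearman rho 0.914, n = 15). Nebl, Klhl31, Mymx, Car3, Ak4, Cdkn1c, Actc1, Gm28653 and Kcnh3 followed, with r from 0.96 to 0.97. Mymx makes the fusion peptide myomixer, and Actc1 is the actin of heart and early skeletal muscle. The libraries fall into a low and a high set, so these values mostly describe that split, and without the library labelled mutant 4 these 10 genes had r from 0.96 to 0.98. At the other end among the listed genes were Sfrp1 (r -0.89), a secreted Wnt antagonist of progenitors, and Nhlh1 (r -0.88), a bHLH factor of young granule neurons. Other listed granule neuron genes rose with Cdh15: Cbln3 (r 0.92), Grin2c (0.88), Slc17a7 (0.85) and Neurod2 (0.78). The Spearman rho of Slc17a7, 0.921, was above that of Klhl41. Cntn2 (r -0.66), Reln (-0.58), Kcnd2 (-0.53) and Neurod1 (-0.22) went the other way, as Nhlh1 did.

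At P7, Cdh15 transcripts were counted as unique molecular identifiers (UMIs) in 45562 kept cells, and the kept cells held 9123 Cdh15 UMIs. Doublet removal had taken out most Cdh15 UMIs of every library, from 1900 of 3676 in Tead1/2 mutant 1 to 389 of 423 in Insm1 control 2. The levels and places given below hold for kept cells unless another setting is named. Per library the kept cells numbered 2224 to 5772 at median depths of 4358 to 7841 UMIs, and 0 barcodes were shared between libraries. Summed over all kept cells, Cdh15 stood at 4.18 and 1.98 CPM (UMIs of the gene in proportion to all UMIs, not per gene length) in the Insm1 controls and at 25.8, 33.4 and 40.2 in the Insm1 mutants. It stood at 0.587 and 0.675 CPM in the Tead1/2 controls and at 40.98, 51.8 and 45.6 in the Tead1/2 mutants. Every mutant of an allele lay above its controls, as did 29.2% of 19690 genes in the Insm1 comparison and 34.7% in the Tead1/2 comparison. The log2 changes from the fit over all 10 libraries were 3.28 (SE 0.27) and 6.13 (SE 0.33). Leaving out Insm1 control 1 took the former to 3.97. The Tead1/2 controls were the lowest group and the Tead1/2 mutants the highest, with no overlap with the Insm1 groups at either end. Between the mutants the gap was small, from 40.2 in the highest Insm1 mutant to 40.98 in the lowest Tead1/2 mutant. The share of all genes with no overlap between the mutants of the 2 alleles was not computed, so nothing is read from this order.

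The control groups of the 2 lines were set against each other at both ages. At P2 their values overlapped, with a log2 difference (Tead1/2 minus Insm1) of -0.44 (SE 0.59), and 13% of 20837 genes were lower in every Tead1/2 control than in every Insm1 control. At P7, over all kept cells, the log2 difference was -2.42 (SE 0.39) and the groups of 2 did not overlap. Non-overlap in this direction held for 29.1% of genes, so by itself it singles out nothing. The counts behind it were 129 and 34 Cdh15 UMIs in the Insm1 controls against 20 and 17 in the Tead1/2 controls. Lines with different floxed alleles are compared here, and line cannot be told apart from any other difference between the 2 sets of animals.

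Myod1, the myogenic bHLH factor whose cluster pattern is closest to that of Cdh15 by Pearson correlation, differed between the controls in the same direction. At P2 it ran from 0.869 to 3.06 CPM in Insm1 controls and from 0.0746 to 0.119 CPM in Tead1/2 controls (edgeR log2 difference -4.18, SE 0.99, FDR 0.0199), where 8.37% of all genes passed. At P7 over all kept cells it stood at 1.96 and 2.02 TMM-scaled CPM against 0.382 and 0.282 CPM (log2 difference -2.54, SE 0.29, FDR 0.00125), where 6.69% passed. Myog did not pass between the controls at P7 (log2 difference -0.33, SE 0.55, edgeR FDR 0.772) or at P2 (-2.22, SE 1.69, FDR 0.427).

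Kept cells formed 29 clusters, built without Cdh15 and named from marker genes. In controls of both lines most Cdh15 UMIs lay in granule progenitor-like cells, the dividing cells of the granule lineage. They held 87.9 ± 0.451% of the Cdh15 UMIs of the Insm1 controls and 78.2 ± 2.50% of those of the Tead1/2 controls (SD, n = 2 each), from 41.2% and 45.8% of the cells. The level in progenitor-like cells was 8.49 and 4.07 CPM in Insm1 controls (113 and 30 UMIs) and 0.986 and 1.07 in Tead1/2 controls (16 and 13 UMIs). Granule neuron-like cells of the same libraries stood at 0.425, 0.166, 0.216 and 0.266 CPM, so the progenitor-like class was the higher of the granule classes in each of the 4 control libraries.

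Classes in which the gene has no known place set the level of stray counts. GABAergic interneuron-like, Purkinje-like, glial, microglia-like, endothelial and meningeal cells together gave 0.394 and 0.311 CPM in the Insm1 controls and 0.133 and 0.414 in the Tead1/2 controls, from 1 or 2 UMIs a library. In the mutants these classes gave 1.76 ± 0.552 (Insm1) and 1.89 ± 0.827 (Tead1/2) CPM (SD, n = 3 each). These levels hold for cells kept after doublet removal. With doublets kept, the GABAergic interneuron-like class alone stood at 0.474 to 3.13 CPM over the controls, 17.7 to 31.3 in Insm1 mutants and 16.02 to 37.1 in Tead1/2 mutants, and with only the highest 4% of doublet scores removed at 14.1 to 26.3 and 12.1 to 23.7 in the mutants. Progenitor-like cells with doublets kept stood at 42.05 to 70.1 CPM in Insm1 mutants and 46.4 to 66.8 in Tead1/2 mutants. The gap between progenitor-like and background classes in the mutants was thus much smaller under those settings. The progenitor-like level of the Insm1 controls stood above that background in both libraries. That of the Tead1/2 controls stood above it by less, on 16 and 13 UMIs.

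In the mutants Cdh15 was higher in progenitor-like cells of every library. Part of this class in the mutants came from clusters nearly absent from controls, as described below. The Insm1 mutants stood at 32.9, 67.7 and 88.0 CPM (159, 257 and 162 UMIs), a mean of 62.9 ± 27.8 (SD, n = 3) against 6.28 ± 3.13 (SD, n = 2) in controls. The Tead1/2 mutants stood at 48.2, 72.6 and 70.0 (497, 745 and 802 UMIs), a mean of 63.6 ± 13.4 (SD, n = 3) against 1.03 ± 0.0569 (SD, n = 2). The lowest mutant library of each allele exceeded the highest control, and the mutant values of the 2 alleles overlapped. Over the whole granule lineage 25.9% (Insm1) and 23.5% (Tead1/2) of genes were higher without overlap, and that share is not given for this class alone. In both alleles mutant 1 was the lowest, and number 1 is the dissection that kept all lobules in each group, while numbers 2 and 3 lacked lobules IX and X. Within the dissection of all lobules the Insm1 control and mutant stood at 8.49 and 32.9, and within the other dissection at 4.07 against 67.7 and 88.0. The part of the dissection was not tested, with 1 library a group for all lobules.

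**Figure D2:**
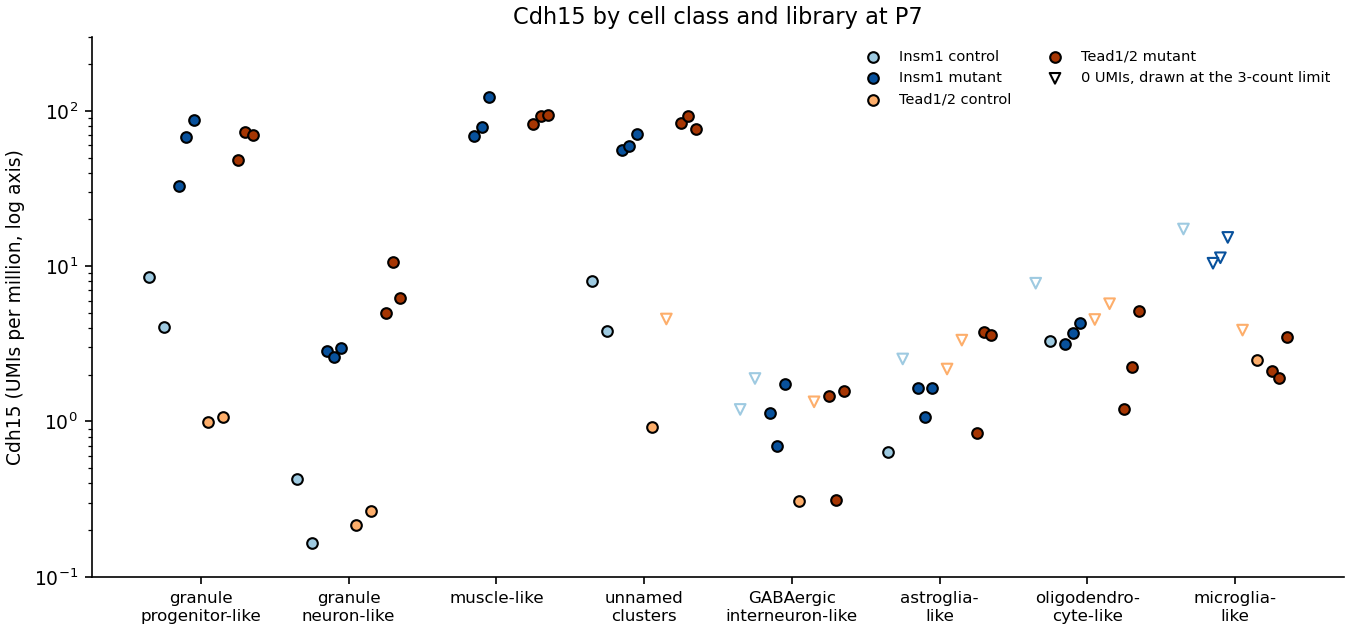
Cdh15 CPM on a log axis (vertical) for each P7 library, by cell class (horizontal) and genotype (colour), for classes with at least 20 cells in the library. Open triangles mark libraries with 0 Cdh15 UMIs at the limit that 3 counts would give. Progenitor-like cells run from 0.986 to 8.49 in controls and from 32.9 to 88.0 in mutants, and muscle-like cells reach 20 cells in mutant libraries alone.

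Different clusters made up the progenitor-like class in controls and mutants. Clusters 3 and 25, with 3300 cells of which 3 were from controls, held 30.1, 62.1 and 69.4% of the class in the Insm1 mutants and 46.4, 71.9 and 62.6% in the Tead1/2 mutants. Within these clusters Cdh15 stood at 71.2, 98.5 and 114 CPM in Insm1 mutants and at 91.3, 93.3 and 103 in Tead1/2 mutants. The rest of the class, clusters 0, 2, 5 and 6, is shared by all genotypes, though in different proportions. Cluster 6 held 587 cells of Insm1 controls against 58 of Insm1 mutants. Over clusters 0, 2, 5 and 6 together Cdh15 stood at 8.50 and 3.801 in Insm1 controls (113 and 28 UMIs). It stood at 15.9, 17.9 and 25.9 in their mutants (53, 26 and 14 UMIs). The Tead1/2 controls stood there at 0.986 and 1.07 (16 and 13 UMIs), against 8.73, 18.3 and 14.9 in their mutants (47, 52 and 64 UMIs). The groups did not overlap in the shared clusters either. Over the whole granule lineage 25.9% (Insm1) and 23.5% (Tead1/2) of genes were higher without overlap, so this by itself singles out nothing. In cluster 6 the Insm1 controls had a mean of 4.94 (22 UMIs), and the 1 mutant library with at least 20 cells stood at 4.87 (1 UMI). In clusters 0, 2 and 5 the Insm1 mutant means were higher. The mutant level in the shared clusters was well below that of clusters 3 and 25 in all 6 libraries. Over all libraries together Myod1 stood at 32.2 CPM in cluster 3, against 3.16, 3.69, 3.07 and 3.87 in clusters 0, 2, 5 and 6. The class difference between mutants and controls is thus not one between like cells.

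The share of cells with a Cdh15 UMI was compared at an equal depth of 2000 randomly drawn UMIs a cell, which left out 4 to 75 shallower progenitor-like cells a library. For Insm1 it was 1.74 and 0.864% of progenitor-like cells in controls, against 5.79, 11.7 and 14.1% in mutants. For Tead1/2 it was 0.254 and 0.241% in controls, against 8.88, 11.4 and 12.2% in mutants. Every mutant library exceeded every control library. The share of all genes whose percentages do so was not computed, so this by itself singles out nothing. Exact binomial 95% intervals (Clopper-Pearson, counting error only) spanned 0.447 to 2.40% over the Insm1 controls and 0.0656 to 0.615% over the Tead1/2 controls. Their lower bounds in the mutants were 4.27% or more in every library. Without thinning the shares were 4.53 and 1.98%, then 14.8, 31.1 and 33.8%, then 0.622 and 0.719%, then 19.1, 33.3 and 34.2% in the same order.

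The background classes gave thinned shares of 0 and 0.163% (Insm1 controls) and 0 and 0.155% (Tead1/2 controls). The interval of the latter reached 0.862%, so at this depth the share in progenitor-like cells of Tead1/2 controls was not separable from background. In the mutants the background shares were 0 to 0.175% (Insm1) and 0.0641 to 0.445% (Tead1/2). GABAergic interneuron-like cells, the largest of these classes, had median depths of 4174.5 to 6923 UMIs, and progenitor-like cells had 4461 to 8140.

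Muscle transcripts were also present at a low level in classes other than muscle, and the values are set beside Cdh15 here. In progenitor-like cells the 14 muscle markers summed to 67.7 to 85.7 CPM over the 4 controls, 152 to 179 in Insm1 mutants and 277 to 798 in Tead1/2 mutants. GABAergic interneuron-like cells showed a like rise. They had 51.1 to 74.9 over the 4 controls, 99.8 to 157 in Insm1 mutants and 231 to 699 in Tead1/2 mutants. Their Cdh15 was between 0.314 and 1.73 in the mutants after doublet removal. In Tead1/2 mutant 2 the muscle sum was 798 in progenitor-like and 699 in interneuron-like cells, while Cdh15 was 72.6 and 0.314. The ratio of Cdh15 to the muscle markers was not the same in these 2 classes of kept cells. With doublets kept, the Cdh15 of interneuron-like cells in mutants was much higher, as given above. Sarcomere genes weigh more in the sum than Myod1 does: in progenitor-like cluster 5 Ttn stood at 75.3 CPM and Myod1 at 3.07. The source of the Cdh15 and muscle transcripts in these classes was not tested.

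Progenitor-like cells with no drawn UMI of any muscle marker also carried Cdh15. After thinning, a Cdh15 UMI was found in 1.70 and 0.833% of such cells of Insm1 controls, against 4.33, 11.3 and 13% for their mutants. The Tead1/2 controls had 0.195 and 0.211%, against 7.27, 10.8 and 12.1% for their mutants. Among progenitor-like cells with a drawn muscle UMI the mutant shares were 10.3 to 16.9% (Insm1) and 11.7 to 12.4% (Tead1/2). The control shares there were 2.02 and 1.06% (Insm1, 248 and 189 cells) and 0.662 and 0.422% (Tead1/2, 302 and 237 cells). The mutant shares exceeded the control shares with or without a muscle UMI in every library.

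**Figure D3:**
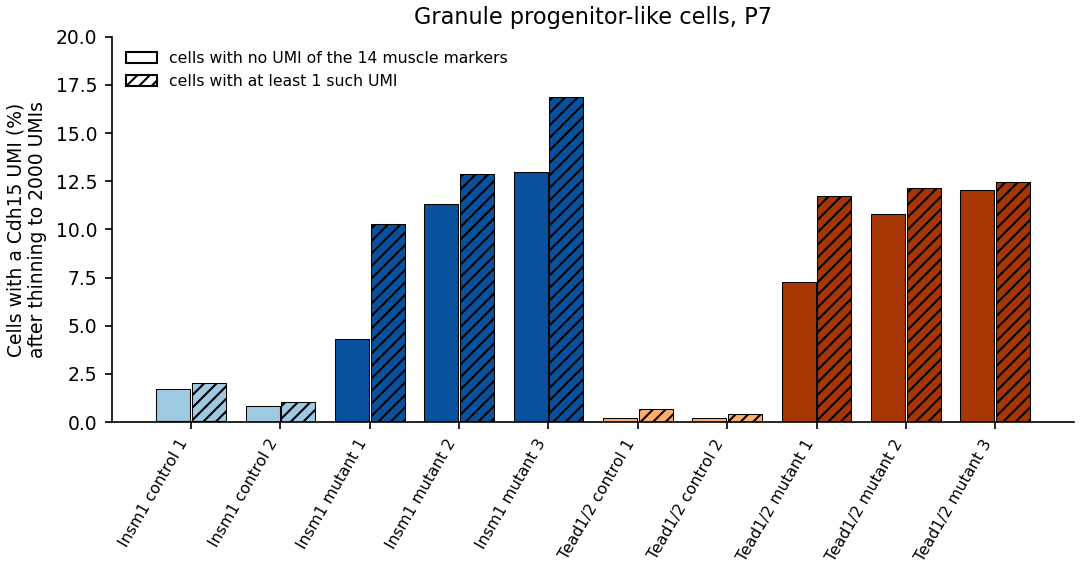
Percent of granule progenitor-like cells with a Cdh15 UMI (vertical axis) in each P7 library (horizontal axis), after thinning to 2000 UMIs. Plain bars are cells with no UMI of the 14 muscle markers among the drawn UMIs, and hatched bars are cells with at least 1. Plain bars reach 0.195 to 1.70% in controls and 4.33 to 13% in mutants.

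Granule neuron-like cells had less Cdh15 than progenitor-like cells. Granule neuron-like cells stood at 2.83, 2.58 and 2.98 CPM in Insm1 mutants and at 5.01, 10.7 and 6.21 in Tead1/2 mutants. The Insm1 values are near those of oligodendrocyte lineage-like cells in the same mutants (3.15 to 4.29, on 2 or 3 UMIs a library), which are not known for the gene, and a neuron share of 0.395 to 0.898% after thinning compares with 0 to 0.175% in the background classes. In all 10 libraries the neuron-like level was below the progenitor-like level. Different clusters made up this class too. Clusters 4 and 7 held 2037 and 1349 cells of Insm1 controls and 2116 and 668 of Tead1/2 controls, against 324 and 304 of Insm1 mutants and 509 and 258 of Tead1/2 mutants. There Cdh15 stood at 0.294 and 0.402 CPM in Insm1 controls (3 UMIs each) and 1.14 and 0.563 in their mutants (2 UMIs and 1 UMI), and at 0.330 and 0 in Tead1/2 controls against 0.324 and 0 in their mutants (cluster 4, then 7, libraries summed). The other UMIs of the class in mutants lay in clusters 13, 15 and 27 (15, 15 and 21 UMIs for Insm1, 26, 4 and 124 for Tead1/2), which hold 28 and 51, 3 and 0, and 0 and 0 cells of the Insm1 and Tead1/2 controls. With doublets kept the class stood higher in mutants, at 12.03 to 16.8 CPM for Insm1 and 7.46 to 14.6 for Tead1/2. Cluster 27, a neuron-like cluster with 0 control cells, was the highest of its class over all libraries together (10.8), at 6.44, 1.68 and 8.31 for Insm1 and 11.1, 18.3 and 9.43 for Tead1/2.

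Summed over the granule lineage, progenitor-like and neuron-like cells together, Cdh15 stood at 4.71 and 2.31 CPM in Insm1 controls against 14.04, 24.01 and 31.2 in the mutants of that allele. It stood at 0.706 and 0.761 in Tead1/2 controls and 31.7, 45.9 and 47.1 in their mutants. The log2 changes were 2.67 (SE 0.33) and 5.77 (SE 0.40), and the groups did not overlap, as was the case for 25.9% and 23.5% of 16356 genes in this direction. Between the controls the log2 difference was -2.35 (SE 0.50), where 26.8% of genes were lower without overlap and 1.54% passed the edgeR test. Leaving out Insm1 control 1 moved the Insm1 change to 3.34. These sums cannot tell apart a change in the mix of progenitor-like and neuron-like cells from a change per cell.

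Muscle-like cells carried the gene at the highest level of any named class. They were 8.81% of kept cells in Insm1 mutants and 15.8% in Tead1/2 mutants, and 3 cells, with 4 Cdh15 UMIs, in 1 control library. Cdh15 stood at 69.0, 78.7 and 122 CPM in the Insm1 mutants (237, 283 and 158 UMIs) and at 82.4, 92.1 and 94.0 in the Tead1/2 mutants (914, 1191 and 988 UMIs). The means, 90.0 ± 28.4 and 89.5 ± 6.25 (SD, n = 3 each), differed by less than the spread between libraries. After thinning, 14.5, 16.4 and 24.6% of these cells in Insm1 mutants and 20.3, 20.4 and 19.6% in Tead1/2 mutants had a Cdh15 UMI. The number of muscle-like cells depends on doublet removal, after which the class had 1008 cells in Insm1 mutants and 2612 in Tead1/2 mutants. With doublets kept, 1 muscle-like cluster alone held 1085 and 3096 cells of these mutants, at a median of 28618 UMIs.

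Within the muscle-like class the early cluster had more Cdh15 per UMI counted than the sarcomere-rich one, in 5 of 6 mutant libraries. Cluster 26, led by Myog and Esr1, stood at 152, 148 and 179 CPM in Tead1/2 mutants, and cluster 23, led by Myh8 and other sarcomere genes, at 66.5, 67.9 and 69.0. In Insm1 mutants the values were 87.4, 99.1 and 121 against 51.1, 64.5 and 130, so Insm1 mutant 3 had the opposite order, on 15 cells of cluster 23. The median depth of cluster 23, 14931 UMIs, was well above the 5286 UMIs of cluster 26, and sarcomere transcripts take up a large part of its total, with titin alone at 52289 CPM. Per cell the order was the other way: with libraries summed and no thinning, 60.4% of cluster 23 cells and 54.0% of cluster 26 cells had a Cdh15 UMI in Tead1/2 mutants, and 56.8% and 38.2% in Insm1 mutants. At 2000 UMIs a cell the shares were 14.01% and 25.4%, and 12.8% and 18.4%.

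A pair of clusters with high Cdh15 was left unnamed, because a leading gene belonged to another class than their markers, a rule set after the clusters were seen. Cluster 1 had 9 progenitor markers but Grin2c, a gene of mature granule neurons, among its leading genes, and 1860 of its 2057 cells came from Insm1 mutants. Cdh15 stood there at 58.5, 63.4 and 75.5 CPM in the Insm1 mutants. Cluster 24 had 12 muscle markers but the smooth muscle actin Acta2 among its leading genes. It stood at 88.4, 100.2 and 113 for the Insm1 allele and 136, 127 and 131 for Tead1/2.

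The places that held the Cdh15 transcripts of kept cells were compared between the 2 alleles. In Insm1 mutants cluster 1 held 34.3 ± 0.808% of the Cdh15 UMIs, muscle-like cells 28.1 ± 2.51%, progenitor-like cells 24.1 ± 3.04% and cluster 24 held 9.74 ± 0.936% (SD, n = 3). In Tead1/2 mutants muscle-like cells held 47.8 ± 3.38%, progenitor-like cells 31.3 ± 4.52%, cluster 24 held 15.6 ± 2.16% and cluster 1 held 1.85 ± 0.300% (SD, n = 3). The ranges over libraries of the 2 alleles overlapped in none of these 4 places, and the differences were not tested. The shares of a library add up to the whole, so they are not separate differences. The order of the progenitor-like shares depends on leaving cluster 1 unnamed. Counted in, cluster 1 would add 34.3% to the 24.1% of Insm1 mutants and 1.85% to the 31.3% of Tead1/2 mutants. That reverses the order. With cluster 24 counted as muscle-like, a choice made after its values were seen, the muscle-like shares were 37.8% and 63.3%. With cluster 1 counted as progenitors the Insm1 change in the granule lineage became 3.23.

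**Figure D4:**
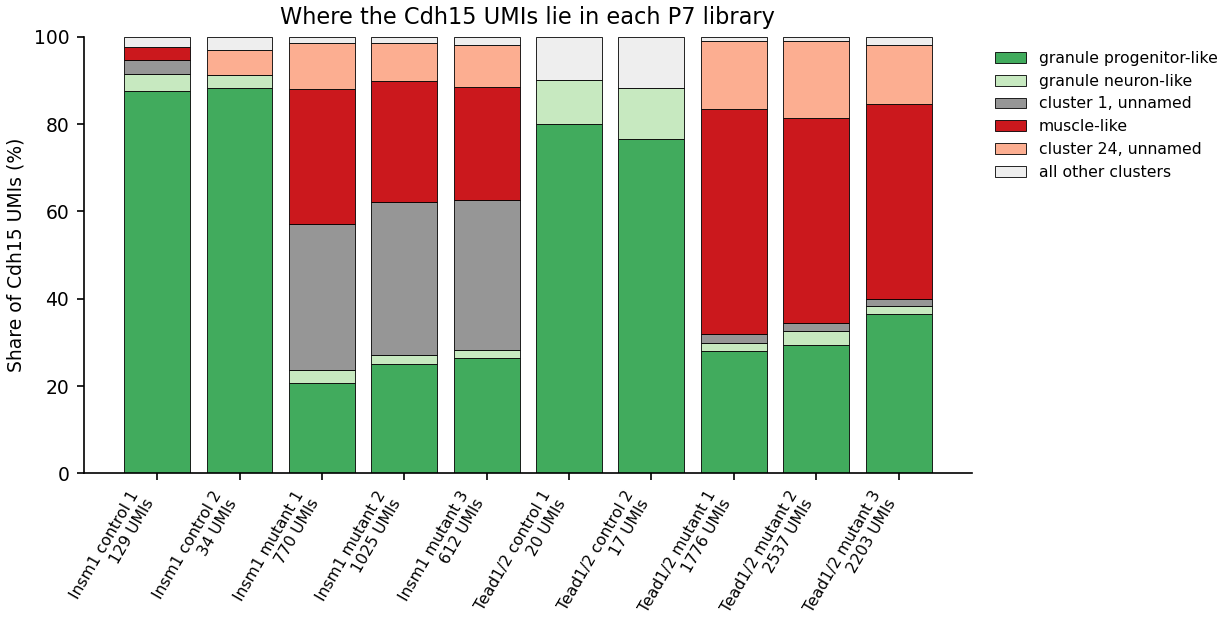
Share of the Cdh15 UMIs of each P7 library (vertical axis, percent) that lie in the named places (colours), with the number of Cdh15 UMIs under each library. Progenitor-like cells hold 76.5 to 88.2% in the 4 controls, and in the mutants muscle-like cells, progenitor-like cells and the unnamed clusters 1 and 24 share the transcripts.

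Over the 27 clusters of at least 100 cells, Myod1 had the highest Pearson correlation with Cdh15 of 13906 genes (r 0.97 on log2 levels). Its Spearman rho, 0.852, was below the 0.864 of Jsrp1. The next by Pearson correlation were Gm11523, Platr14, Mgarp, Klhl31, Jsrp1, Mrln, Stc2, Zdbf2 and Gm33782, with r from 0.94 to 0.88. Jsrp1 and Mrln make proteins of the muscle sarcoplasmic reticulum. Myog, the factor of myoblast differentiation, came 28th (r 0.83). Myod1 stood at 23.2 to 42.4 CPM in clusters 1, 3, 23, 24, 25 and 26, the ones with Cdh15 above 60, and at 3.87 or less in the other clusters of that size. Myog ran from 14.3 to 21.0 in clusters 1, 3 and 25 and from 181 to 653 in clusters 23, 24 and 26, and reached at most 6.63 in the others. Clusters share libraries and their background, and r describes these clusters alone.

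**Figure D5:**
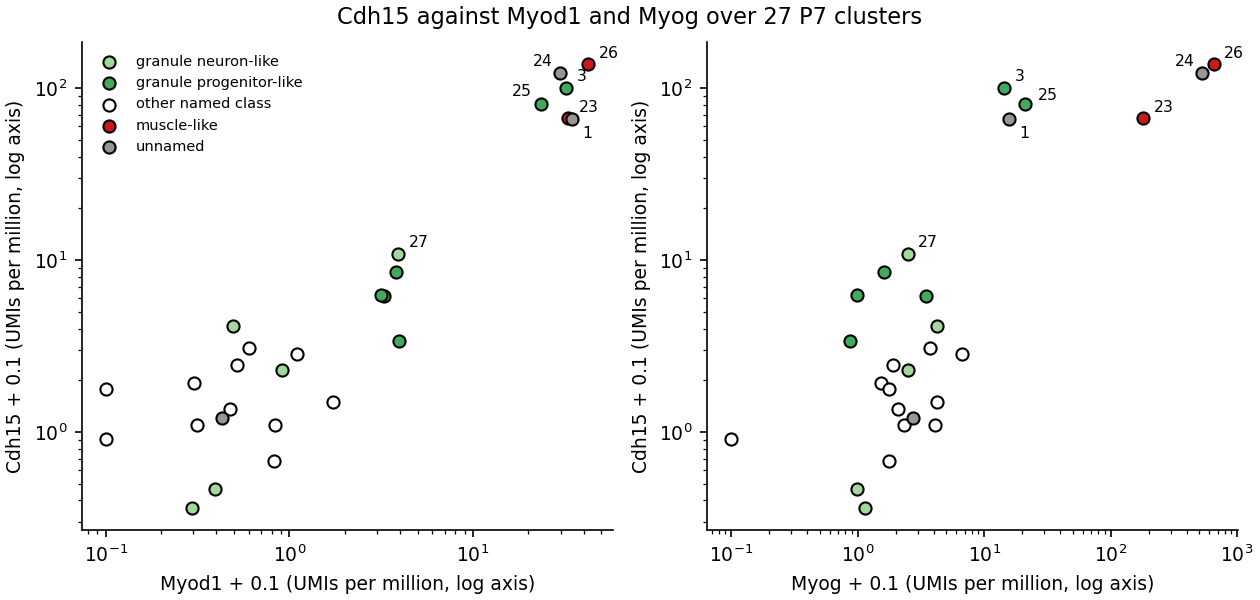
Cdh15 (vertical axes) against Myod1 (left) and Myog (right), in CPM plus 0.1 on log axes, for the 27 P7 clusters of at least 100 cells, coloured by class. Cluster 27 and the 6 clusters with Cdh15 above 60 are numbered, and the latter have Myod1 levels of 23.2 to 42.4, while their Myog levels run from 14.3 to 653.

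The other cadherins give the family context. The type I cadherins Cdh2 (N-cadherin) and Cdh4 (R-cadherin), both neural adhesion proteins, passed the test in neither P2 comparison. Cdh2 had log2 changes of -0.10 (SE 0.07) and -0.12 (SE 0.06), and Cdh4 of -0.22 (SE 0.13) and -0.08 (SE 0.07). Without the library labelled mutant 4 the Tead1/2 values were -0.13 (SE 0.06) for Cdh2 and -0.07 (SE 0.08) for Cdh4, and neither passed. In the P7 granule lineage Cdh4 rose in Insm1 mutants (log2 change 0.63, SE 0.09, edgeR FDR 0.000314) and in Tead1/2 mutants (0.39, SE 0.09, FDR 0.00847), while Cdh2 had -0.01 (SE 0.08) and -0.09 (SE 0.08) and did not pass. None of the 13 type II and atypical cadherins tested at P2 passed in either allele, with or without the library labelled mutant 4. Over all genes 0.689% (Insm1), 0% (Tead1/2) and 3.19% (Tead1/2 without that library) passed at P2, so a count of 0 of 13 is near the background. In the P7 granule lineage 9 of 13 rose and 2 fell in Insm1 mutants (median log2 change 0.94), and 8 rose and 3 fell in Tead1/2 mutants (median 1.03), against medians of 0.00 and -0.01 over all genes. There 23.1% of all genes passed in the Insm1 comparison and 19.9% in the Tead1/2 comparison, in either direction.

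Of these, Cdh9, Cdh22, Cdh11 and Cdh7 rose most in Insm1 mutants, by log2 values of 4.11, 2.38, 2.37 and 1.90. In Tead1/2 mutants Cdh22 rose by 3.23, Cdh11 by 3.01 and Cdh9 by 2.18, and Cdh12 fell by 1.75. Of the catenins, which tie cadherins to the cytoskeleton, 2 of 12 rose and 2 fell in each allele in the P7 granule lineage, where 23.1% (Insm1) and 19.9% (Tead1/2) of all genes passed. Ctnna3, the alpha-catenin known from heart muscle, rose by 2.17 (Insm1) and 1.56 (Tead1/2), and Ctnna1 fell by 0.64 and 0.45. At P2 none of the 12 passed in Insm1 mutants, where 0.689% of all genes did, or in Tead1/2 mutants, where 0% did. Without the library labelled mutant 4 Ctnnb1 alone of the 12 rose, by 0.21, beside 3.19% of all genes called in either direction.

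Genes of myoblast recognition and fusion, the process in which M-cadherin is known, were followed beside it. At P2, where 0.48% of all genes passed upwards in the Insm1 comparison and 1.98% in that of Tead1/2 without the library labelled mutant 4, 3 of 23 rose in Insm1 mutants: Mymk (log2 change 4.19, edgeR FDR 0.00878), Cav3 (4.06, FDR 0.00259) and Mymx (2.67, FDR 0.00605). Without that library 5 of 24 rose in Tead1/2 mutants, among them Mymk (4.64), Mymx (3.85), Cav3 (3.27) and Cdon (0.79). With it none of the 24 passed, as 0 of 20247 genes (0%) did in that comparison by edgeR, where 4052 genes (20%) had an unadjusted p under 0.05 and DESeq2 called 960. In the P7 granule lineage 6 of 23 rose and 7 fell in each allele, beside 23.1% (Insm1) and 19.9% (Tead1/2) of all genes that passed in either direction. Cdon, a cadherin-binding co-receptor of myoblasts that also binds Sonic hedgehog, rose by 4.12 (Insm1) and 4.54 (Tead1/2) and was the largest of the list in both.

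Among 15 tested genes of satellite cells and myoblasts, Myog (4.52), Chrna1 (3.01) and Des (1.42) rose at P2 in Insm1 mutants, where 0.48% of all genes did. Without the library labelled mutant 4, 5 of 16 rose in Tead1/2 mutants, where 1.98% of all genes did, led by Myog (7.08), Myod1 (5.85), Chrna1 (1.89) and Fgfr4 (0.85). With that library none of the 16 passed, as 0% of all genes did. In the P7 granule lineage, where 23.1% (Insm1) and 19.9% (Tead1/2) of all genes passed in either direction, 4 of 10 rose and 1 fell in Insm1 mutants, and 6 of 10 rose in Tead1/2 mutants, with Myod1 at 1.95 and 4.93, Megf10 at 4.41 and 4.91, Myog at 3.19 and 3.40 and Fgfr4 at 1.77 and 2.82. The satellite cell factor Pax7 was at 0.175 CPM or less in each of the 6 clusters with the most Cdh15.

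Granule cell genes were read from the same lineage sums, where 23.1% (Insm1) and 19.9% (Tead1/2) of all genes passed. Of 12 progenitor genes 3 rose and 7 fell in Insm1 mutants, and 3 rose and 6 fell in Tead1/2 mutants, with Sfrp1 at -1.18 and -1.04 and Atoh1 at -0.89 and -0.85. Of 16 neuron genes 11 rose and 1 fell in Insm1 mutants (Gabra6 4.94, Grin2c 4.86, Fat2 3.12, Calb2 3.06), and 10 rose and 4 fell in Tead1/2 mutants (Fat2 3.01, Grin2c 2.80, Gabra6 2.78, Calb2 2.07). Grin2c is also a leading gene of cluster 1, where Cdh15 is high.

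The genes beside Cdh15 on the chromosome were also examined. Of the 5 RefSeq genes on each side, 3 had enough counts to be tested at P2 and in the P7 granule lineage, and none of these passed edgeR's test between mutants and controls of either allele, with or without the library labelled mutant 4 at P2. Of all genes 0.689% (Insm1), 0% (Tead1/2) and 3.19% (Tead1/2 without that library) passed at P2 and 23.1% and 19.9% in the granule lineage, so 0 of 3 is not set apart from the background. Over all P7 cells, where 30.8% (Insm1) and 44.7% (Tead1/2) of all genes passed, 4 were tested, of which Acsf3 (log2 change -0.43, edgeR FDR 0.00192) and Ankrd11 (-0.23, FDR 0.00568) fell in Tead1/2 mutants and the pseudogene Gm16378 rose in Insm1 mutants (1.48, FDR 0.0373). Acsf3 and Ankrd11, the nearest protein-coding genes on either side, had log2 changes of -0.19 (SE 0.10) and -0.23 (SE 0.11) in Insm1 mutants at P2.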

How the data were processed

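RNA-seq of P2 cerebella and single-cell RNA-seq (Parse Evercode) of P7 cerebella were used, and the study's ATAC-seq and CUT&RUN samples were not analysed here. The bulk tables hold expected counts deposited by the authors; RSEM 1.3.3, STAR 2.7.9a and build GRCm38.p6 stand in the submitters' processing notes. The P7 matrices hold UMI counts deposited by the authors, whose pipeline is not given in the sources used here. Bulk columns were matched to samples by column name, since each table's name gives the other allele, and P7 libraries by the names in the deposited cell metadata. Library preparation was stranded per the labels, but the strand used in counting is not given in the sources used here.

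Bulk totals ran from 28066728 to 64518819 expected counts, and bulk CPM use TMM-scaled totals. Expected counts were rounded, 92 spike-in entries were left out, and edgeR 4.0.16 quasi-likelihood fits (R 4.3.3, TMM, filterByExpr) were run per allele at P2 and over the summed counts of all 10 P7 libraries, with Benjamini-Hochberg adjustment and a threshold of 0.05. DESeq2 1.42.0 was an alternative. On simulated P2 Insm1 counts for 19371 genes, 96% of genes changed by a fold of 2 were recovered, and 62% on simulated P7 all-cell Insm1 counts for 19088 genes. P-values measure only the spread between these samples. P7 barcodes needed 1000 UMIs, 500 genes and under 15% mitochondrial counts. Of 79838 such barcodes 45562 were kept, since Scrublet marked 23.5 to 58.9% of each library as doublets (median 15377.5 to 26601.5 UMIs), a large share that was also varied. Its seed was set to 1 after seeing that seed 0 marked under 0.5% in 3 of the 10 libraries (36.4 to 55.3% in the others). Which seed gave the better calls was not tested. Clusters (scanpy 1.11.5, 2000 variable genes without Cdh15, 30 components, 15 neighbours, Leiden resolution 1) were named from markers. A limit for a count of 0 is 3 counts. Cdh15, its gene lists and the tests were chosen with earlier results of these data known. Named genes were the called list members with the largest changes, at most 4 a list and comparison, besides Cdh2 and Cdh4 in every comparison, the neighbouring genes and the 10 genes closest to Cdh15 in pattern at each age. Pax7 over clusters, Sfrp1, Nhlh1 and the other granule neuron genes by correlation, and Myod1 and Myog between controls and over clusters, were named after their values were seen.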

Additional observations from a re-analysis of the deposited data

Results flagged for a closer look

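In groups of 4 P2 libraries, a library was marked where its gap to the nearest other, as a share of the group's range, exceeded Dixon's 95% critical value. Of 21 checks, each of 1 gene in 1 group, 4 were marked, and chance marks about 5%. The checks are not independent, since several genes were read in the same libraries. Myog and Mymx follow Cdh15 over the P2 libraries (r 0.95 and 0.97), so their marks on 1 library are not separate events. The library labelled Tead1/2 mutant 4 was marked for Cdh15 (0.957 CPM), Myog (0.415 CPM) and Mymx (0.511 CPM), each below the other mutants of its group. Insm1 control 4 was marked for Tead2, at 79.3 CPM, below the other Insm1 controls.

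Cdh15 was also counted in P7 barcodes that entered no comparison. In barcodes under 500 UMIs it stood at 30.5 CPM in Insm1 mutants and 41.1 in Tead1/2 mutants (means, n = 3 each), against 5.99 ± 3.02 and 6.65 ± 1.23 in their controls (SD, n = 2 each). In barcodes removed as doublets it stood at 30.3 and 46.7 in the mutants, against 2.93 and 0.754 in the controls. In the Tead1/2 controls the small barcodes held 59 and 63 of the 146 Cdh15 UMIs of each library, 40.4 and 43.2%, at a level above the 0.587 and 0.675 CPM of kept cells. In the mutants they held 5.91 to 7.89%. The source of these transcripts was not tested.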

How the results depend on the processing

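Over 212 alternatives to 17 results, 170 were counted as the same and 0 as reversed. A log2 change or share counted as the same when it moved by less than the SD between libraries, and a gene count within a set ratio. Only log2 changes could reverse, since shares and gene counts have no direction here. The library labelled mutant 4 widens the SD of the P2 Tead1/2 comparison, where all 12 alternatives for Cdh15 counted as the same. For Cdh15 at P2 the change ran from 2.30 to 2.61 (Insm1) and from 2.75 to 3.34 (Tead1/2) over libraries left out. At P7 without 1 library it ran from 2.90 to 3.97 over all cells and from 2.34 to 3.34 in the granule lineage for Insm1, highest in both without Insm1 control 1. The granule lineage change for Insm1 was 3.19 with doublets kept, 3.22 with only the highest 4% of doublet scores removed, 3.26 at a minimum of 500 UMIs (where Scrublet also removed 0% of Insm1 mutant 1 and Tead1/2 control 1 and 0.0152% of Tead1/2 control 2, so that doublet removal changed too) and 3.23 with cluster 1 counted as progenitors, the last chosen after seeing the data. The cause was not tested.

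Genes called at P2 numbered 135 for Insm1, 314 by DESeq2, 212 with no filter on low counts and 64 to 132 without 1 library. For Tead1/2 they numbered 0, 960 by DESeq2, 1287 with no filter, 4 with all 15 libraries in 1 fit, and 0 to 646 without 1 library, 646 without the library labelled mutant 4. In the P7 granule lineage they ran from 2323 to 4289 (Insm1, 3780 in all, lowest without Insm1 control 2) and from 1986 to 3657 (Tead1/2, 3259 in all, lowest without Tead1/2 control 1) over libraries left out.

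With the replicate number as a block, the Cdh15 changes were 2.44 and 3.33 at P2, 3.20 and 6.07 over all P7 cells, and 2.45 and 5.59 in the P7 granule lineage (Insm1, then Tead1/2). Genes called under the block were 64 and 236 at P2 and 3795 and 3186 in the granule lineage. At P2 the library labelled Tead1/2 mutant 4 has no control of its number, so it adds nothing to the blocked Tead1/2 change. The Tead1/2 values of 3.33 and 236 thus differ from the main ones by the loss of that library as well as by the block. Without that library and with no block they were 3.34 and 646. The effect of the block alone was not tested there. Same-numbered libraries correlated at -0.18 to 0.33 at P2, where they share only a number. At P7 number 1 also marks the dissection of all lobules, so the block is in part one for dissection. The P7 correlations (-0.15 to -0.0032) cannot show a pairing, since the deviations of 2 controls mirror each other.

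The muscle-like share of Cdh15 UMIs in Insm1 mutants (28.1%) was 38.3% with only the highest 4% of doublet scores removed, 31.4% at 500 UMIs, with the same change in doublet removal, and 37.8% with cluster 24 counted. That of Tead1/2 mutants (47.8%) was 54.8% and 63.3% under the former and the last of these. The share of granule lineage cells with a Cdh15 UMI moved with depth: without thinning 1.73, 9.64, 0.453 and 18.1%, at 2000 UMIs 0.701, 3.85, 0.159 and 6.83%, and at 1000 UMIs 0.269, 1.99, 0.106 and 4.02% (Insm1 controls and mutants, then Tead1/2). In Insm1 mutants it was 6.10% with cluster 1 counted, 6.53% with doublets kept and 6.19% with the highest 4% removed. With 1 library left out, at 2000 UMIs, the share ran from 0.452 to 0.949% in Insm1 controls and from 3.14 to 4.56% in their mutants. It ran from 0.139 to 0.179% in Tead1/2 controls and from 6.39 to 7.45% in their mutants. The values of the Tead1/2 controls rest on 20 and 17 Cdh15 UMIs in kept cells. Each P7 group has 2 or 3 libraries.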
